A study of Mus musculus with 14 samples.

Results

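The 9 genes Pf4, Ppbp, Itga2b, Itgb3, Gp1ba, Gp1bb, Gp9, Gp6 and Treml1, which mark megakaryocytes and the platelets they release, were read, out of 24908 tested genes, in spleen cells of both genotypes (WT and Sting gt/gt). A probe belonged to the group when the RefSeq accession given for it on the array maps to 1 of the 9 symbols, which gave 13 probes. There were 7 mice of each genotype. All 14 had been injected with CFA + CII 2 weeks earlier, at 10 to 14 weeks of age. CFA + CII is complete Freund's adjuvant mixed with type II collagen, which starts collagen-induced arthritis. The study's methods give C57BL/6 as the background of the Sting gt/gt mice and name no strain for the WT mice. The golden ticket allele of the Sting gt/gt mice is a germline change that removes detectable STING, a sensor adaptor of the type I interferon response, from every cell type. WT mice were bought from a breeding centre and Sting gt/gt mice came from another laboratory, so colony and genotype cannot be told apart, and since no array here was of a mouse without CFA + CII, the response to immunization itself was not measured. Replicates 1 to 3 of both genotypes were scanned on one day and replicates 4 to 7 on another, and on scan day 2 the 4 Sting gt/gt arrays shared a slide that held no WT array.

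Megakaryocytes are large polyploid cells that shed platelets into the blood. In the mouse they live in the bone marrow and also in the red pulp of the adult spleen, so a spleen cell preparation holds megakaryocyte RNA together with the RNA that circulating platelets carry. The transcription factors Gata1, Fli1, Runx1 and Nfe2 drive the genes of the lineage. The 9 genes encode chemokines stored in platelet alpha granules (Pf4, Ppbp), the fibrinogen receptor (Itga2b, Itgb3), the receptor for von Willebrand factor (Gp1ba, Gp1bb, Gp9), the collagen receptor that signals activation (Gp6) and a receptor of the granule membrane that reaches the surface on activation (Treml1). In RNA of whole spleen cells, fewer megakaryocytes or platelets and less RNA per cell cannot be told apart.

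The RefSeq promoter table (GRCm38.p6) held a window for 8 of the 9 genes; Itgb3 was not matched. The windows below are the 250 bases before the annotated start, read 5′ to 3′ along the gene. They are printed because the 9 genes rose and fell together from mouse to mouse (shown further on), and because the set spans a pair of genes that neighbour each other on chromosome 5 (Ppbp and Pf4), the gene whose window held both motifs searched (Gp1ba) and the gene closest to the others in its variation (Treml1). Capitals mark AGATAA or TGATAA (the GATA motif) and AGGAAG or CGGAAG (the ETS motif), searched on both strands.
Ppbp, chr5:90768268-90768517, plus strand: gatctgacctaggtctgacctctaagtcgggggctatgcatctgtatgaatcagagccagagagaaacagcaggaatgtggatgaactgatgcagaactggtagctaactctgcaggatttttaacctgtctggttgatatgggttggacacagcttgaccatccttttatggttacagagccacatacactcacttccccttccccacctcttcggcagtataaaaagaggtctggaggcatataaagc
Pf4, chr5:90772185-90772434, plus strand: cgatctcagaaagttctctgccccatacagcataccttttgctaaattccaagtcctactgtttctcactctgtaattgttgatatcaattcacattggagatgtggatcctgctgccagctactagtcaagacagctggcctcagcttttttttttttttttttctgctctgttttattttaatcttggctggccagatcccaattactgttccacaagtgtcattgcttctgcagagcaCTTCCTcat
Gp1ba, chr11:70638872-70639121, plus strand: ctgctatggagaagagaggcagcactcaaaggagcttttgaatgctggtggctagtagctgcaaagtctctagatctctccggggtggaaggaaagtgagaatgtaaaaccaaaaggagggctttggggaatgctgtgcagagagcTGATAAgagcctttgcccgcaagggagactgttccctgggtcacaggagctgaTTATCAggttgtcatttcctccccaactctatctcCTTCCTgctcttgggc
Treml1, chr17:48359666-48359915, plus strand: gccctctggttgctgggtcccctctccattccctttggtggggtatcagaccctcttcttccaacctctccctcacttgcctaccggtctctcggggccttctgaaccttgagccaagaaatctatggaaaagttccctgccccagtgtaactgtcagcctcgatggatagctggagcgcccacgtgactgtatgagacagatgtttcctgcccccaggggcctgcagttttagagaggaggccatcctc

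GATA motifs lay in the windows of 2 of the 8 genes (Gp1ba and Gp6), while 16.6% of all 32851 windows in the table held one. ETS motifs lay in 5 of the 8 (Pf4, Itga2b, Gp1ba, Gp1bb and Gp9), against 39.2% of all windows. The GATA motifs of Gp1ba began 104 and 51 bases before its start, and its ETS motif began 16 bases before it, the same distance as in Gp9. The windows of Ppbp and Treml1 held neither set of letters. These matches are descriptions of the letters in a short window, and motifs outside it were not searched.

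Between 30781 and 34400 probes per array were well above background, and scan day parted the arrays along the first principal component, which held 43.0% of the variance. In the 7 against 7 comparison, 867 of 24908 genes (3.48%) passed an unadjusted p under 0.05, and 1 gene (0.00401%) passed after Benjamini-Hochberg adjustment (limma). B cell and T cell marker genes, 10 on each list, were all well above background on all 14 arrays.

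None of the 9 genes passed the test between genotypes. All 9 were well above background on all 14 arrays, 8 of the 9 differences were above 0 and 1 was below (2 and 7 with no scaling between arrays, 6 and 3 with quantile normalization or in the deposited table), and they ran from -0.045 (Gp9) to 0.13 (Itga2b) on the log2 scale. Their median of 0.030 stood beside a median of 0.017 over all tested genes, and the lowest unadjusted p was 0.414 (limma), and the lowest adjusted p was 0.9998. For each of the 9 the values of the WT and Sting gt/gt mice overlapped. The 95% intervals set how large a change could have gone unseen: over the 9 genes they reached from 0.801-fold to 1.37-fold of WT.

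The alpha granule chemokines were at nearly equal levels in the genotypes. In the values that follow, signal is log2 processed intensity minus the 75th percentile of its array. Pf4, platelet factor 4, spanned 5.68 to 6.32 among WT mice (median 5.89) and 5.59 to 6.14 among Sting gt/gt mice (median 6.05). Its difference was 0.025 ± 0.12 (SE, 7 mice per group; unadjusted p = 0.836, limma, and p = 0.830 by the two-sided exact permutation test over 3432 splits). The highest and the lowest mouse both belonged to replicates 1 to 3. Ppbp, the precursor of further platelet chemokines, spanned 4.74 to 5.30 among WT mice (median 5.15) and 4.69 to 5.38 among Sting gt/gt mice (median 5.08), a difference of 0.018 ± 0.13 with an interval from -0.25 to 0.29.

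Both chains of the fibrinogen receptor varied more between mice than between genotypes. Itga2b, the alpha chain (integrin αIIb, CD41), held the largest difference of the 9. It spanned 0.21 to 0.94 among WT mice (median 0.49) and 0.26 to 1.13 among Sting gt/gt mice (median 0.69), and its difference of 0.13 ± 0.15 had an interval from -0.20 to 0.45 (exact permutation p = 0.415, 7 mice per group). The highest 2 mice were Sting gt/gt replicates 4 and 5, at 1.13 and 1.03, and WT replicate 2 came next at 0.94. Itgb3, the beta chain, spanned 3.72 to 4.56 among WT mice (median 4.16) and 3.50 to 4.62 among Sting gt/gt mice (median 4.13), a difference of 0.042 ± 0.17. The Sting gt/gt group held both its lowest mouse (replicate 1) and its highest (replicate 6), and the SD there, 0.38, was the largest of any gene and group.

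The 3 genes of the von Willebrand factor receptor did not part the genotypes either. Gp1ba, whose product binds the factor, spanned 0.65 to 1.24 among WT mice (median 1.05) and 0.66 to 1.44 among Sting gt/gt mice (median 1.12), a difference of 0.030 ± 0.15. Its 3 Sting gt/gt mice of scan day 1 lay between 0.66 and 0.74, and the 4 of scan day 2 lay between 1.12 and 1.44. Gp1bb, the chain bound to it, spanned -0.79 to 0.081 among WT mice (median -0.45) and -0.68 to 0.0091 among Sting gt/gt mice (median -0.34), a difference of 0.041 ± 0.13. Gp9, which the complex needs to reach the surface, was the gene with the narrowest spread. It spanned 3.04 to 3.49 among WT mice (median 3.13) and 2.87 to 3.25 among Sting gt/gt mice (median 3.16), and its difference of -0.045 ± 0.094 was the negative one of the 9.

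Gp6, the collagen receptor of platelets, and Treml1, the granule membrane receptor, were likewise at close levels in both genotypes. Gp6 spanned -0.11 to 0.40 among WT mice (median 0.040) and -0.14 to 0.44 among Sting gt/gt mice (median 0.20). The difference was 0.091 ± 0.11, with an interval from -0.14 to 0.33 (exact permutation p = 0.369, 7 mice per group). Treml1 spanned 3.57 to 4.46 among WT mice (median 3.96) and 3.46 to 4.34 among Sting gt/gt mice (median 3.91), a difference of 0.016 ± 0.16. In both genotypes its lowest mouse was replicate 1.

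**Figure D1:**
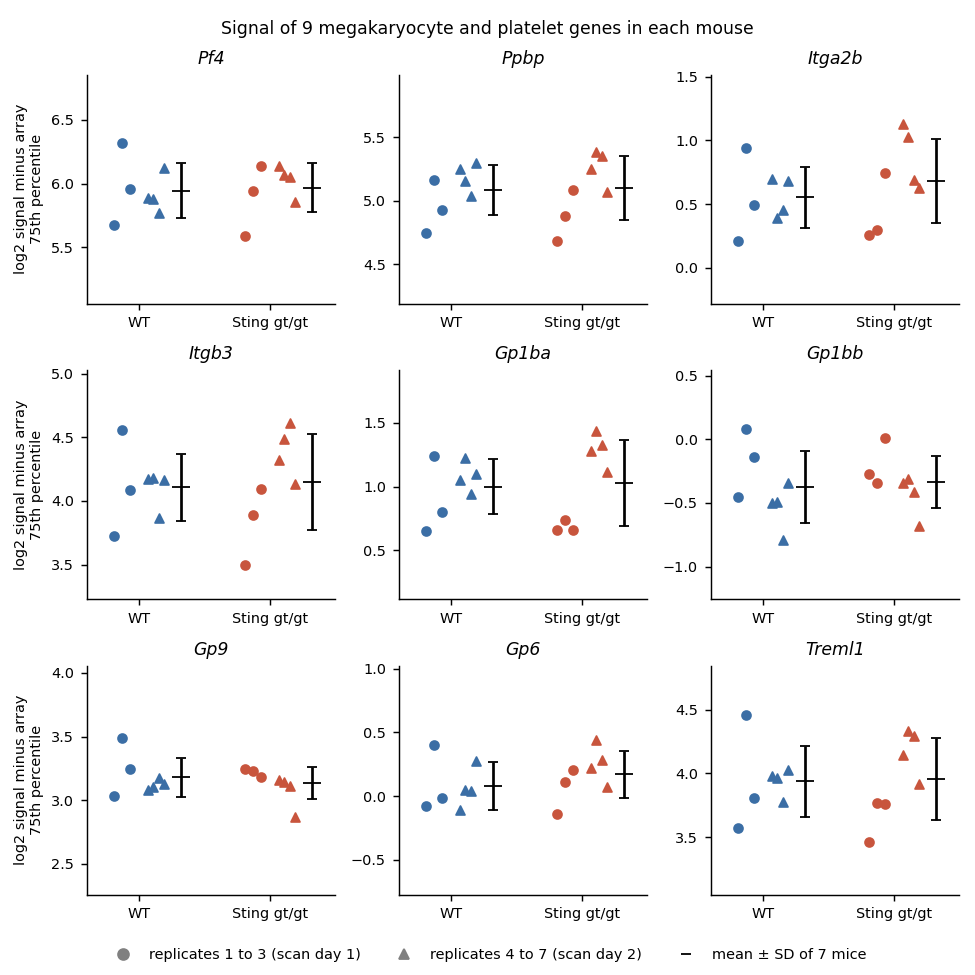
Log2 signal minus the 75th percentile of the array for each of the 9 genes (1 panel each, all panels spanning the same height), by genotype. Circles are replicates 1 to 3 and triangles replicates 4 to 7, and the bar beside each group is the mean ± SD of 7 mice; the groups overlap in all 9 panels, and WT replicate 2 is the highest circle in each.

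Where a gene had a second probe, the probes were compared. The second probe of Itgb3 differed by 0.079 between genotypes, that of Treml1 by 0.052, that of Gp6 by -0.010, and their values followed those of the first probe across mice with a correlation of 0.89, 0.90 and 0.72 after the mean of each scan day was taken off. Itgb3 and Treml1 were thus above 0 on both probes, and Gp6 had a sign on its second probe opposite to that on its first, both within their error. The second probe of Treml1 gave -0.21 on the first scan day (scan day 1) and 0.25 on the second (scan day 2). That of Itgb3 gave -0.47 and 0.49, and that of Gp6 gave -0.18 and 0.12, in the same order. The values by day given below are those of the first probe of each gene. The second probe of Gp1bb, which carries another RefSeq transcript accession of the gene, was well above background on 3 of 7 WT and 3 of 7 Sting gt/gt arrays and was not tested. Of the 13 probes, 12 were thus tested, and no value of the 13 was saturated or carried an outlier mark.

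Within scan days the 9 genes leaned in opposite directions, without passing a test. On scan day 1 (3 against 3 mice) the differences of all 9 lay below 0, from -0.033 (Gp1bb) to -0.29 (Itgb3), with a median of -0.093 against 0.016 over all genes. On scan day 2 (4 against 4) 8 of the 9 were higher, up to 0.31 (Itga2b), Gp9 stood at -0.051, and the median was 0.19 against 0.017 over all genes. None of the 9 passed an unadjusted p under 0.05 on either day in limma, where 5.55% of all genes did on scan day 1 and 22.1% on scan day 2. The exact permutation test cannot go below p = 0.1 with 3 against 3 mice or below p = 0.0286 with 4 against 4, and its lowest values over the 9 genes were 0.4 and 0.0571 (Gp1ba on scan day 2).

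The difference between the days was tested directly. Gp1ba had a genotype difference of -0.21 ± 0.15 on scan day 1 and of 0.21 ± 0.13 on scan day 2 (SE), which differed by 0.42 ± 0.19 (unadjusted p = 0.0466, adjusted p = 0.270, limma; exact permutation p = 0.0257 within scan days). It was the single member of the 9 under an unadjusted p of 0.05 for this contrast, which 18% of all genes passed, and 0.763% of all genes passed it after adjustment, none of them a member. The call of Gp1ba was lost with quantile normalization (unadjusted p = 0.0768), with no scaling between arrays (0.108) and in the deposited table (0.0799). It was also lost without any 1 of 10 of the 14 mice (unadjusted p from 0.0552 to 0.144, limma, the highest without WT replicate 2), and kept without any 1 of WT replicates 1, 3 and 5 and Sting gt/gt replicate 7. The number of members under this threshold was 3 with median centring, 4 without WT replicate 1 and 3 without Sting gt/gt replicate 7. Of all 24908 genes, 4902 were under it with median centring, 4474 without WT replicate 1 and 5213 without Sting gt/gt replicate 7. The number of members was at most 1 in the other settings, and none passed after adjustment in any setting. Itgb3 followed with a difference between days of 0.59 ± 0.28 (unadjusted p = 0.0528) and Treml1 with 0.52 ± 0.26 (unadjusted p = 0.0687, limma). For Gp9 the days differed by -0.015 ± 0.16, an error too wide to tell whether its small genotype difference was alike on both. No scaling between arrays gave -0.10 for the first day and -0.094 for the second. Quantile normalization gave 0.011 and -0.12, and leaving out WT replicate 2 gave 0.080 and -0.051.

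**Figure D2:**
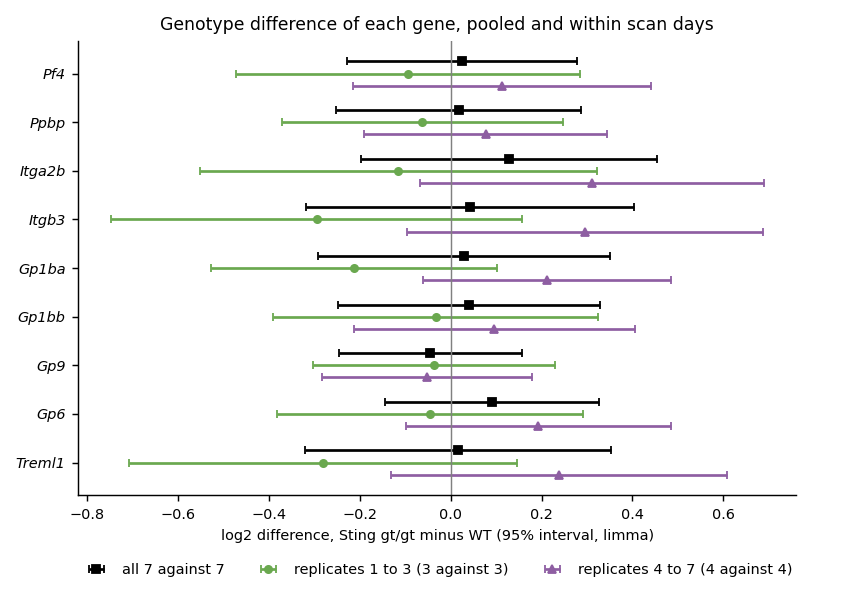
Log2 difference of each gene, Sting gt/gt minus WT, with its 95% interval from limma, over all 14 mice (squares), within replicates 1 to 3 (circles) and within replicates 4 to 7 (triangles). All 27 intervals cross 0; the circles lie left of it for all 9 genes and the triangles right of it for all but Gp9.

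The lean of scan day 1 depended on single mice. WT replicate 2 was the highest of the 6 mice of that day for all 9 genes, by 0.65 above the next mouse for Treml1 and by 0.46 for Itgb3. Without it, 6 of the 9 genes were higher in Sting gt/gt mice on scan day 1 and the median difference of the day was 0.075 in place of -0.093. Without Sting gt/gt replicate 1, 4 of the 9 were higher and the median was -0.027. Without WT replicate 1, the lowest WT mouse of that day, the median was -0.25. Gp1ba, Itgb3 and Treml1 then passed the threshold of limma with an unadjusted p of 0.0478, 0.0347 and 0.0343, respectively. Of all 24908 genes, 1808 passed in that setting, which set WT replicates 2 and 3 against 3 Sting gt/gt mice. Without any single mouse of scan day 2 its median stayed between 0.13 and 0.25. Slide moved with genotype on scan day 2, and its part in the lean of that day cannot be told apart from genotype. On scan day 1, slide 1 held Sting gt/gt replicate 1 beside WT replicates 1 and 2, where all 9 genes were lower in the Sting gt/gt mouse (median -0.30), and slide 2 held 1 mouse of each genotype, where 8 of the 9 were lower (median -0.046).

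Some levels moved with scan day itself, in both genotypes. Across genotypes Ppbp was 0.31 ± 0.095 higher and Gp1ba 0.39 ± 0.11 higher on scan day 2 than on scan day 1, while Gp1bb was 0.30 ± 0.11 lower (SE; adjusted p = 0.0195, 0.0117 and 0.0412, limma). Of all genes, 38.8% passed this test. The pair of chains that meet in one receptor, Gp1ba and Gp1bb, thus shifted in opposite directions between the scan days. The shift was not tested within each genotype. Gp1ba spanned 0.65 to 1.24 on scan day 1 and 0.94 to 1.23 on scan day 2 among WT mice. Among Sting gt/gt mice it spanned 0.66 to 0.74 and 1.12 to 1.44. What else differed between the days was not tested.

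Once the mean of each scan day was taken off, the 9 genes rose and fell together from mouse to mouse. Over the 14 mice, the 36 pairs of genes had Pearson correlations from 0.48 to 0.95 with a median of 0.77, given here as a description. Itgb3 and Treml1 (0.95), Gp1ba and Treml1 (0.94) and the neighbours Pf4 and Ppbp (0.93) were the closest pairs, and Itgb3 and Gp9 (0.48) the least alike. Against the mean of the other 8, Treml1 was the closest gene (0.95), with Ppbp and Pf4 at 0.92, and Gp9 the least close (0.60). Gp1ba and Gp1bb, the partners of Gp9 in one receptor, stood at 0.84 and 0.85.

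The mice at the ends of this shared variation came from both genotypes. The mean deviation of the 9 genes from their scan-day mean was highest in WT replicate 2 (0.40), followed by Sting gt/gt replicate 5 (0.21), and lowest in Sting gt/gt replicate 1 (-0.23), WT replicate 1 (-0.22) and WT replicate 6 (-0.21). All 9 genes were above their scan-day mean in WT replicate 2 and in Sting gt/gt replicates 4 and 5. None was above it in WT replicate 1 or Sting gt/gt replicate 7. Without WT replicate 2 the pairs had a median correlation of 0.70, and Gp9 stood at 0.12 with Itgb3 and at 0.29 with the mean of the others.

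**Figure D3:**
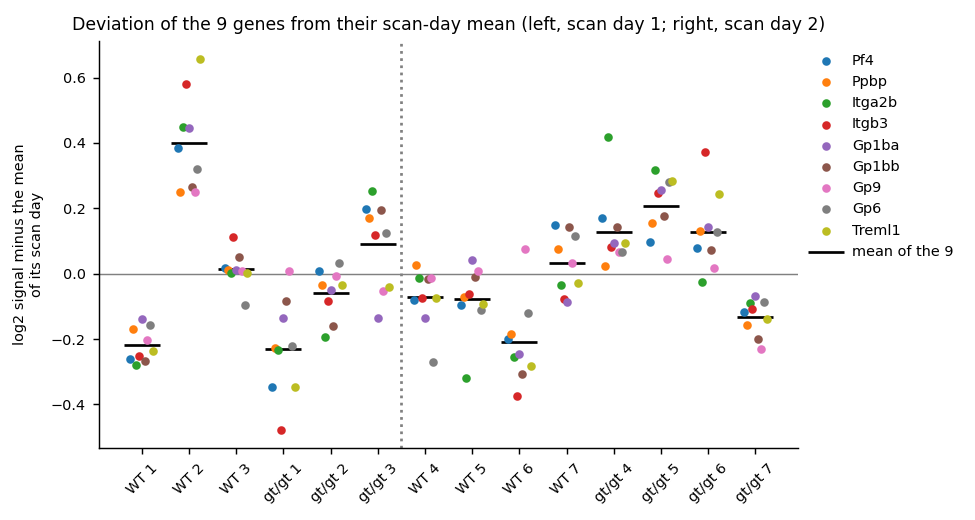
Deviation of each of the 9 genes (coloured points) from the mean of its scan day, in log2 units, for each mouse, with the mean of the 9 as a black bar. WT replicate 2 has all 9 points above 0 and a mean of 0.40, and WT replicate 1 and Sting gt/gt replicate 7 have all 9 below 0.

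Of the 10 genes whose variation was most like the mean of the 9, of which 9 are named here, 5 were on a wider list of platelet genes described below. Among 14720 other genes with a symbol, Tubb1, the beta tubulin of the platelet marginal band, ranked first with a correlation of 0.93 (Spearman 0.90) over the 14 mice. Gas2l1 (0.92), Mpig6b (0.91), F2rl2 (0.91), Ehd3 (0.91), Inpp5a (0.91), Gp5 (0.90), Smim3 (0.90) and Serpine2 (0.90) followed. Mpig6b is an inhibitory receptor of megakaryocytes, F2rl2 the thrombin receptor PAR3, Gp5 the subunit that joins the von Willebrand factor receptor, and Serpine2 a thrombin inhibitor. Their correlations lay between 0.92 and 0.99 among the 6 mice of scan day 1, between 0.79 and 0.93 among the 8 of scan day 2, and between 0.82 and 0.87 without WT replicate 2. None of the genes named differed between genotypes by more than 0.12 on the log2 scale.

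The wider list held 109 other megakaryocyte and platelet genes, sorted by role, and all 109 were tested. Of these, 19 stood among the first 100 genes in likeness, where the list made up 0.740% of the genes ranked. The median correlation with the mean of the 9 was 0.51 over the list and 0.030 over all genes ranked. By role it was 0.62 for the 21 other surface receptors, 0.61 for the 16 granule and secreted proteins, 0.56 for the 14 cytoskeletal genes, 0.51 for the 24 genes of activation signalling and eicosanoids and 0.45 for the 13 genes of granule and membrane biogenesis. It was -0.052 for thrombopoietin signalling (6 genes) and -0.20 for the 15 transcription factors and cofactors.

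Over the 14 mice, the transcription factors parted into those with positive and those with negative correlations with the mean of the 9 genes. Etv6 and Gata2 (both 0.83), Fli1 (0.73) and Runx1 (0.69) were positive, and Gata1 (-0.31), Nfe2 (-0.20), Tal1 (-0.26), Gfi1b (-0.47) and Zfpm1 (-0.49), the cofactor of Gata1, were negative. Etv6, Gata2, Fli1 and Runx1 lay between 0.61 and 0.97 on scan day 1 and between 0.52 and 0.92 on scan day 2. The 5 negative factors stood at -0.38, -0.42, -0.49, -0.60 and -0.55 on scan day 1, in the order named. On scan day 2 they stood at -0.17, 0.032, -0.0071, -0.24 and -0.37, so Nfe2 and Tal1 were near 0 there. These last 5 are also factors of red cell precursors, and their correlations with the mean of 16 erythroid marker genes were 0.77, 0.88, 0.85, 0.84 and 0.93. The mean of the 9 genes and the erythroid mean had a correlation of -0.57 over the 14 mice (Spearman -0.60), and of -0.57 without WT replicate 2. Of the 8 transcription factors with a negative value against the 9 genes, all 8 had a positive value against the erythroid mean, from 0.49 to 0.93. Mafg was positive against both, at 0.17 with the 9 genes and 0.51 with the erythroid mean. Mef2c (0.63) and Meis1 (0.61) were also positive with the 9 genes, and stood at -0.63 and -0.67 with the erythroid mean. Factors other than Gata1, Nfe2 and Fli1 were named here after their values were seen, and all these correlations share the same 14 arrays and their scaling.

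Gata1 spanned 4.35 to 5.43 among WT mice (median 5.10) and 4.16 to 5.30 among Sting gt/gt mice (median 4.83), a difference of -0.18 ± 0.18 (SE, 7 mice per group; exact permutation p = 0.358). Nfe2, needed for platelet release, differed by -0.26 ± 0.17 (exact permutation p = 0.153, 7 mice per group), and Fli1 by 0.17 ± 0.11 (exact permutation p = 0.111). Both Gata1 and Nfe2 overlapped between the genotypes.

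**Figure D4:**
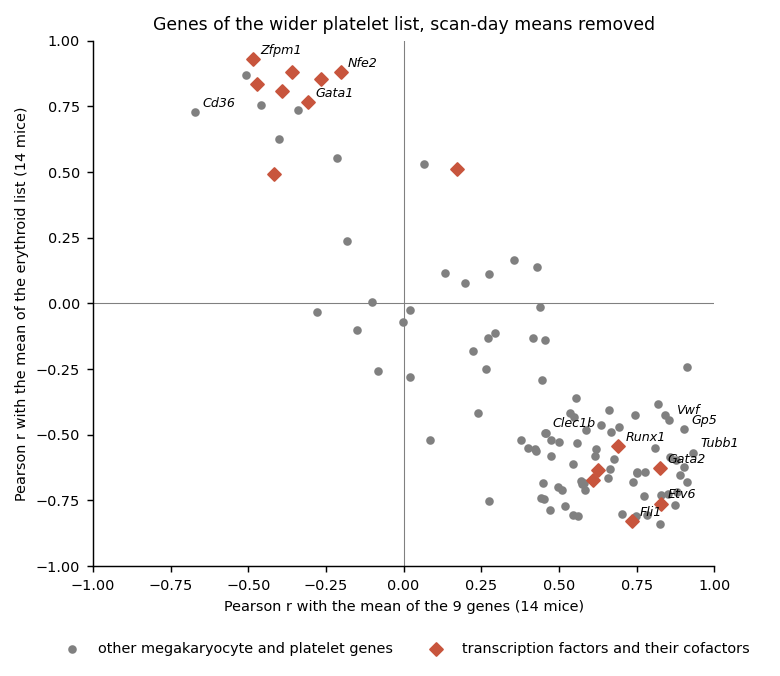
For each of the 109 genes of the wider list, its Pearson correlation with the mean of the 9 genes (horizontal axis) against that with the mean of the erythroid list (vertical axis), over 14 mice with the mean of each scan day removed; diamonds are transcription factors and cofactors. Etv6, Gata2, Fli1 and Runx1 lie at the lower right with most platelet genes, and Gata1, Nfe2 and Zfpm1 at the upper left.

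In the comparison of genotypes the wider list stayed near the background as well. Of the 109 genes, 2 passed an unadjusted p under 0.05 (1.83%, against 3.48% of all genes), and none passed after adjustment. Pla2g4a, the phospholipase that frees arachidonic acid for thromboxane synthesis, was higher in Sting gt/gt mice by 0.22 ± 0.094 (SE; unadjusted p = 0.0329, limma, and p = 0.0152 by the exact permutation test). It spanned 0.89 to 1.10 among WT mice (median 0.98) and 0.89 to 1.45 among Sting gt/gt mice (median 1.21), so that the groups overlapped at their low ends. Pkhd1l1 was lower by 0.62 ± 0.27 (unadjusted p = 0.0370, limma, and exact permutation p = 0.0583), on a dim probe that was well above background on 7 of 7 WT and 3 of 7 Sting gt/gt arrays. The WT arrays alone brought Pkhd1l1 past the filter of 7 arrays. With scan-day means taken off, its correlation was -0.34 with the mean of the member genes and 0.74 with the erythroid mean. The call of Pla2g4a was lost without any 1 of WT replicates 1, 3, 4 and 5 and Sting gt/gt replicates 4, 5 and 6 (unadjusted p from 0.0509 to 0.0721, limma). That of Pkhd1l1 was lost without any 1 of WT replicates 1, 2 and 3 and Sting gt/gt replicates 3, 5, 6 and 7 (0.0529 to 0.0849), and its difference was -0.090 under another background correction. With Sting gt/gt replicate 1 left out, 11 of the 109 genes passed (10.1%), where 7.90% of all genes did.

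By role, the median difference between genotypes was -0.11 for the transcription factors, -0.0041 for thrombopoietin signalling, 0.080 for the other surface receptors, 0.050 for the granule and secreted proteins, 0.055 for granule and membrane biogenesis, 0.098 for the cytoskeleton and 0.086 for activation signalling and eicosanoids, and 79 of the 109 differences were above 0 (56 with no scaling between arrays). Vwf, the ligand of the von Willebrand factor receptor, differed by -0.085 ± 0.15 (SE). Gp5 differed by 0.083 ± 0.14, Clec1b, the podoplanin receptor CLEC-2, by -0.052 ± 0.14, and Tubb1 by 0.031 ± 0.20. None of these 4 passed the test, and their unadjusted p ran from 0.569 to 0.880 (limma).

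The wider list, read on the same arrays, leaned likewise by scan day. Within scan day 1 the difference was below 0 for 70 of the 109 genes (median -0.062) and 6 passed an unadjusted p under 0.05, 1 higher and 5 lower, where 3.74% of all genes passed as higher and 1.81% as lower. On scan day 2, 84 were higher (median 0.15) and 23 passed, 20 higher and 3 lower, where 11% of all genes passed as higher and 11.1% as lower. The 7 cytoskeletal genes that passed on scan day 2, of 14, were all higher. Gp5, the further subunit of the von Willebrand factor receptor, was at -0.20 on scan day 1 and at 0.30 on scan day 2 (unadjusted p = 0.193 and 0.0374, limma), with an adjusted p for the difference of 0.203. None of the 109 genes passed the test of the difference between days after adjustment, and 21 passed it unadjusted, against 18% of all genes.

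Marker lists of other cells that a spleen sample holds were read beside these values. The erythroid list leaned below WT, with a median of -0.38 over the 16 tested genes of 18 listed, 15 of them below 0. Of the 16, 4 were lower past an unadjusted p under 0.05 (limma), where 403 of all 24908 tested genes were. The study's methods include lysis of red blood cells when spleen cells were isolated but do not state it for the arrays, and its part in the erythroid values and in their correlation with the 9 genes was not tested. The summed signal of this list, relative to the WT median, spanned 0.811 to 1.47 among WT mice and 0.730 to 1.48 among Sting gt/gt mice. The summed signal of the 9 genes spanned 0.814 to 1.26 among WT mice and 0.776 to 1.18 among Sting gt/gt mice, and WT replicate 2 was the mouse at 1.26. On scan day 2 the median of the 9 genes was above 0. So were those of the lists of neutrophils (0.33), mast cells and basophils (0.38), plasma cells (0.44) and endothelial and stromal cells (0.25). The medians of the lists of B cells (-0.49) and erythroid cells (-0.47) were below 0. On scan day 1 the medians of these lists were -0.072, 0.0043, -0.098, -0.21, 0.25 and -0.17 in that order. The summed signal of the 11 neutrophil markers spanned 0.877 to 1.59 among WT mice and 0.787 to 2.01 among Sting gt/gt mice, with all 11 well above background on all 14 arrays. The part of these cell types in the values of the 9 genes was not tested. The lists of stem and progenitor cells (9 tested genes, median 0.020), macrophages and monocytes (0.049), T cells (0.036) and NK cells (0.093) had small differences over all mice, and Mecom, a stem cell marker, was not well above background on enough arrays to be tested.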

How the data were processed

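RNA of spleen cells was hybridized to 14 one-colour Agilent arrays, 1 per replicate. The deposited intensity values are background-corrected spot by spot and not scaled between arrays (Agilent Feature Extraction, version 11.0.1.1 in the submitters' notes). They also deposited a table of log2 values whose normalization is not given in the sources used here; it was used as an alternative (correlation with the scanner values of the same array 0.997 to 0.999, column medians 5.49 to 5.52).

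Processed intensity was put on the log2 scale and the 75th percentile of each array was subtracted. Spots marked as outliers were left out and spots of one probe averaged. The test took probes that stood well above background on 7 or more of the 14 arrays (31766 probes, 24908 genes, each read from its brightest tested probe). Accessions were paired with symbols through a RefSeq table of GRCm38.p6 (32994 of 56605 probes matched). Genotypes were compared with limma 3.58.1 in R 4.3.3 with no covariates, at an unadjusted p under 0.05 as in the study's methods, with Benjamini-Hochberg adjustment over all genes. Values within scan days came from a fit of genotype by scan day. Single genes were also compared by two-sided exact permutation tests. On simulated data for the 7 against 7 comparison, a log2 change of 1 was recovered at an adjusted p under 0.05 for 153 of the 200 genes that carried it, with 2 false calls, and 2.38% of unchanged genes had an unadjusted p under 0.05. Smaller changes were not simulated, so recovery at the size of the member differences is not known. The number of arrays limits the precision, and p-values measure the spread between these 14 arrays.

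The members and lists were chosen with earlier results of these data known. Named were the 9 members, the wider-list genes past the threshold, Gata1, Nfe2, Fli1, Gp5, Clec1b, Vwf and Tubb1 whatever their values, and the 10 genes most correlated with the mean of the members; 2 genes that this rule names are not reported here. Replicates with the same number deviated together (correlation 0.16 to 0.53 over genes for the 7 numbers, from the data and not from the labels), as the numbers follow scan day: with the scan-day means taken off, the values ran from -0.41 to 0.25.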

Additional observations from a re-analysis of the deposited data

Results flagged for a closer look

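For Gp9, Sting gt/gt replicate 7 lay far below the other 6 mice of its group, at 2.87 where the next was at 3.11 and the highest at 3.25, so that this gap took 0.649 of the range of the group. For Fli1, Sting gt/gt replicate 1 lay below the rest, at 1.35 where the next was at 1.76 and the highest at 2.04, a share of 0.602. About 1 in 20 groups shows such a gap by chance, and 38 groups of 7 were looked at.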

How the results depend on the processing

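None of the 9 genes was called under any of 33 alternatives, save Itga2b with array weights and an intensity trend (1 of 9 genes, difference 0.32, where 4754 of all genes passed, 19.1%). The median of the 9 moved by less than the spread of mice except to 0.19 in replicates 4 to 7 alone and to -0.19 with slide as a fixed block, where slides of a single genotype carry no weight. It ran from -0.022 to 0.10 without 1 array. By day and without 1 array, it ran from -0.25 to 0.075 on scan day 1 and from 0.13 to 0.25 on scan day 2. The alternatives by scan day and the likeness without WT replicate 2 were chosen after seeing the data.

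Differences so near 0 changed sign easily. In replicates 1 to 3 alone Pf4 was -0.093, Ppbp -0.062, Itga2b -0.11, Itgb3 -0.29, Gp1ba -0.21, Gp1bb -0.033, Gp6 -0.045 and Treml1 -0.28. With slide as a fixed block they were -0.24, -0.17, -0.27, -0.45, -0.19, -0.14, -0.12 and -0.33 in that order. Those estimates rest on slides 1 and 2, which held both genotypes, and so on mice of scan day 1 again. With slide as a random block Pf4 was -0.071, Ppbp -0.081, Itga2b -0.041, Itgb3 -0.18, Gp1ba -0.11 and Treml1 -0.15. With no scaling between arrays Pf4 was -0.029, Ppbp -0.036, Itgb3 -0.011, Gp1ba -0.024, Gp1bb -0.013 and Treml1 -0.038. Quantile normalization put Pf4 at -0.017 and Treml1 at -0.0018, and the deposited table put them at -0.019 and -0.0032. The day difference of Gp9 was 0.11 with median centring and 0.011 with no scaling. Without 1 array the differences ran from -0.019 to 0.088 (Pf4), -0.039 to 0.087 (Ppbp), -0.035 to 0.15 (Itgb3), -0.038 to 0.093 (Gp1ba), -0.029 to 0.12 (Gp1bb), -0.069 to 0.0068 (Gp9) and -0.047 to 0.10 (Treml1), and the day difference of Gp9 from -0.13 to 0.095. The causes were not tested.

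The count of wider-list genes past the threshold was 2, and it was 0 with slide as a random block, 1 with median centring, no scaling, probes above background on all 14 arrays, slide as a fixed block or replicates 1 to 3 alone, 4 with quantile normalization, the Mann-Whitney test or a scan-day term, 6 in the deposited table, 25 with array weights and 28 in replicates 4 to 7 alone. It was 0 to 11 without 1 array. The count over all genes was 444 with slide as a random block, 1812 with a scan-day term, 1928 in the deposited table and 5805 in replicates 4 to 7 alone. It was 496 (without Sting gt/gt replicate 6) to 1968 (without Sting gt/gt replicate 1). Calls split into 292 higher and 519 lower with median centring, 149 and 614 with no scaling, and 507 and 287 with normexp background, against 464 and 403. The replicate block, which pairs mice of the same number, called 1415 of all genes, 3 of the wider list and none of the 9. The number of arrays limits what could be seen, and dim probes such as that of Pkhd1l1 lie near background.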
